A study of Mus musculus with 2 samples.

Results

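The genes of cholesterol and fatty acid synthesis were followed in mouse embryonic stem cells with and without knockdown of the long noncoding RNA LincU. The members were 29 genes named by their place in the pathways: the enzymes from HMG-CoA synthase to 7-dehydrocholesterol reductase, the proteins that control them, and the enzymes of fatty acid synthesis. A probe was taken when the array names its gene by one of these symbols. This gave 53 probes for 28 of the 29 genes, out of 56605 probes and 37074 gene names on the array. Acat2, the cytosolic acetoacetyl-CoA thiolase, had no probe under its own name. A probe named Acat3 that also lists an accession of Acat2 had intensities of 215 on the shCtrl and 232 on the shLincU array, a scaled log2 difference of 0.69. It was not counted as a member.

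The cells were of the line 46C, a mouse embryonic stem cell line with a fluorescent reporter in the Sox1 gene, and grew on feeder cells in medium with serum and LIF until the feeders were removed. One group carried a control short hairpin (shCtrl), although its sample title calls it WT, and the other a hairpin against LincU (shLincU). The title poses the question of whether LincU holds the cells in naive pluripotency by limiting ERK activity. Each group was measured on 1 one-colour Agilent array, so the comparison of 2 arrays has no replicate check and no p-value was computed. Precision is limited by this number of arrays. No probe of LincU was analysed here. The knockdown therefore went unchecked, and directions follow the array labels.

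Cells make cholesterol from acetyl-CoA through mevalonate, isoprenoid units, squalene and lanosterol. Most of these genes are switched on together by SREBP2, the product of Srebf2. SREBP1, from Srebf1, acts more on fatty acid synthesis. Both factors are held in the endoplasmic reticulum with their escort SCAP by INSIG proteins when sterol is plentiful, and are released and cut when it is scarce.

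The promoters of 3 members are shown to give the sequence context of the genes described below. Idi1 had the lowest difference of all members and Mid1ip1 the highest. Hmgcs1, which encodes the enzyme that makes HMG-CoA, is shown because it was the member whose window held a sterol regulatory element as searched. Each sequence is the 250 bases before the RefSeq start in build GRCm38.p6, on the plus strand. Capitals mark matches to the element (TCACNCCAC), to the CCAAT box bound by NF-Y (CCAAT), a partner of SREBP, or to the E-box (CACGTG), on either strand.
Idi1, chr13:8885356-8885605: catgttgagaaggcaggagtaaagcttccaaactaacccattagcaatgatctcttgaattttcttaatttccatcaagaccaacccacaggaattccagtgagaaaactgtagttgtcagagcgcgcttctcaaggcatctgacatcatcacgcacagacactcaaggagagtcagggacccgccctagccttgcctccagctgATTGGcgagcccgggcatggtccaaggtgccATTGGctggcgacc
Mid1ip1, chrX:10717115-10717364: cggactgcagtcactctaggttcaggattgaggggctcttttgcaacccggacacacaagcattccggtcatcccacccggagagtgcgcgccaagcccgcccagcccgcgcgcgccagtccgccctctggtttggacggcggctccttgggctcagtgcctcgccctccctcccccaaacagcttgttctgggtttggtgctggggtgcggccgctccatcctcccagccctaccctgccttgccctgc
Hmgcs1, chr13:119690101-119690350: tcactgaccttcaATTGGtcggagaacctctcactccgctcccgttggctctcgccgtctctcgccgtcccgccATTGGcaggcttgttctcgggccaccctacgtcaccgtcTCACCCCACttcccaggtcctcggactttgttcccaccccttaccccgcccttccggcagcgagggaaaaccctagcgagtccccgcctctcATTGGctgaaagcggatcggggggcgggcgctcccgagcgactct

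In windows that also take in the 50 bases after the start, promoters were at hand for 23 members. CCAAT stood in 18 of them (78.3%), against 41.1% of 27025 genes with a window. The E-box stood in 4 (Hsd17b7, Dhcr7, Insig1 and Scap), or 17.4% against 8.09%, and the sterol element in 1, or 4.35% against 1.44%. Idi1 held CCAAT on the opposite strand at 45 and 14 bases before its start, and Mid1ip1 held none of these motifs. The motifs were counted separately, so overlapping matches each count. These matches describe the letters of the windows and were set against no measured binding.

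The members as a group differed little between the arrays. A level here is the processed intensity on a log2 scale, set relative to the 75th percentile over probes of the same array, and a difference is the level on the shLincU array minus that on the shCtrl array. All 28 genes with a probe had at least 1 probe well above background on both arrays. Their median difference was 0.0071, with quartiles of -0.30 and 0.16, beside a median of 0.020 and quartiles of -0.17 and 0.20 for all 21042 genes measured on both arrays. Of the 28, 24 (85.7%) lay within 0.5 of 0, as did 86.6% of all genes. Only Mid1ip1 was at least 2-fold higher, where 1.15% of all genes were, and 0 members were at least 2-fold lower, where 1.54% of all genes were. Of the 28 members, 15 had a difference above 0 and 13 below it, beside 53.1% and 46.9% of all genes. At 1.5-fold, 1 member (Mid1ip1) was higher, where 4.78% of all genes were. At 3-fold, 0 members were higher and 0 lower, where 0.347% and 0.518% of all genes were.

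**Figure D1:**
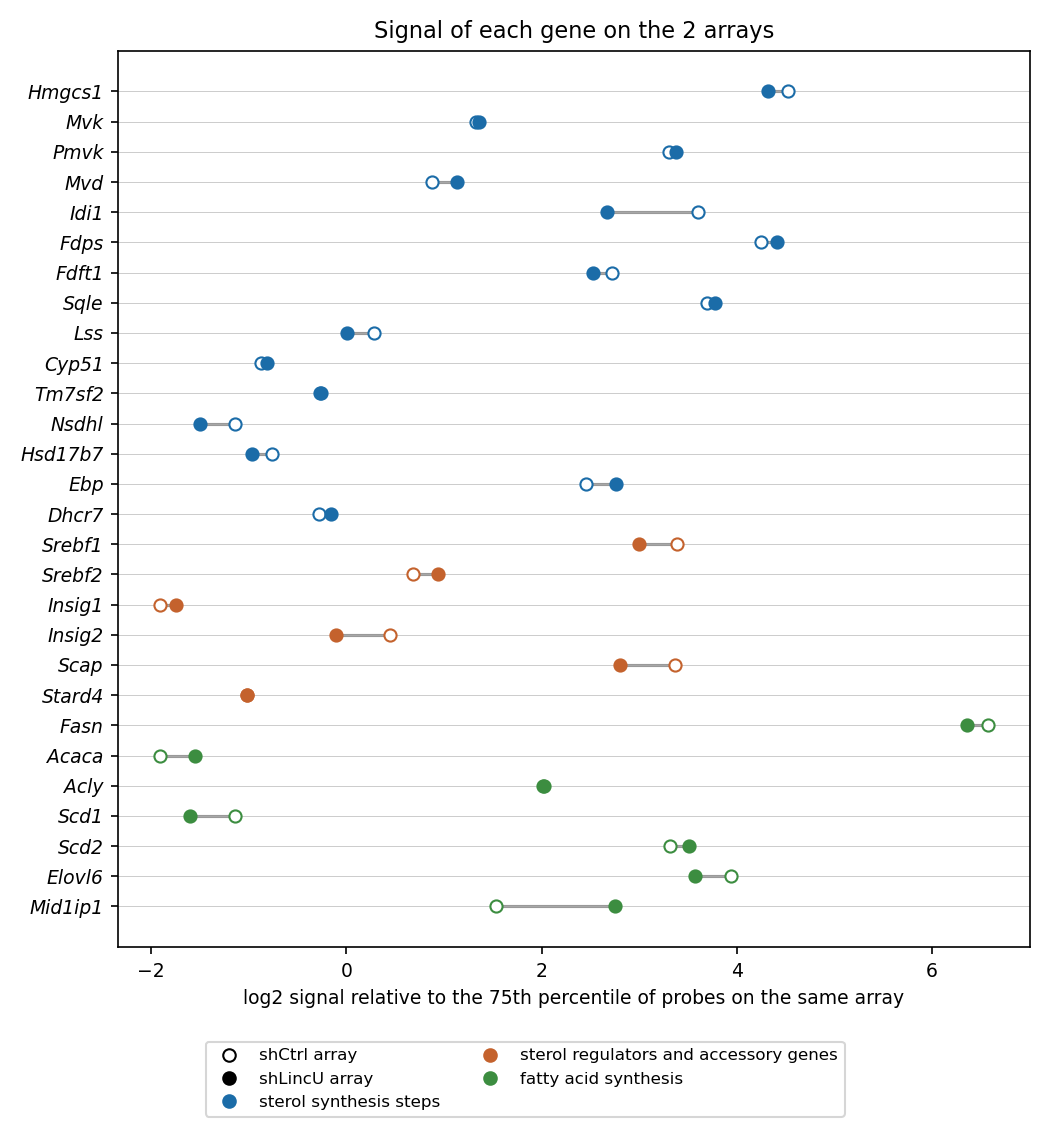
Level of each measured gene on the shCtrl array (open circles) and the shLincU array (filled circles), in log2 units relative to the 75th percentile of probes on the same array, in pathway order from top to bottom. The circles lie close together for most genes, and are furthest apart for Mid1ip1 (1.53 and 2.75) and Idi1 (3.61 and 2.67).

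The error given with a difference is that of the scanner software, which is near 0.20 for a gene with 1 probe and mostly reflects a preset multiplicative error. For a gene with several probes the errors were combined as if the probes were independent, so the error shrinks as probes are added. It holds no spread between cultures. Where a gene had several probes, their SD was 0.18 at the median over such genes. Of the measured members 14 rest on 1 probe and 14 on several. Probe coordinates are given in mm9, as the array lists them.

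The early enzymes, which build mevalonate and convert it to isopentenyl diphosphate, differed little. Hmgcs1 had a level of 4.53 on the shCtrl and 4.32 on the shLincU array, a difference of -0.20. Mvk, mevalonate kinase, had levels of 1.33 and 1.36, and its probes differed by -0.076 and 0.14. Pmvk, the next kinase, had levels of 3.31 and 3.38. These genes thus lay on either side of 0, by about the scanner error or less. Mvd, the decarboxylase that completes isopentenyl diphosphate, had levels of 0.88 and 1.13, a difference of 0.25 ± 0.20 (scanner error).

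Idi1, the isomerase that turns isopentenyl diphosphate into dimethylallyl diphosphate, stood furthest below 0. Its probe at chr13:8891524-8891583 on the plus strand read 7624 intensity units on the shCtrl and 2683 on the shLincU array. After scaling this was a difference of -0.93 ± 0.20 (scanner error), a level 1.91-fold lower on the shLincU array. It ranked 388th from the lowest of 21042 genes, so 1.84% of genes were lower still. The spot lay in the upper rows of the slide and not beside other discordant spots. The value was between -0.90 and -1.06 under the other settings, once the median of all genes was put at its reported value in each. Idi1 alone was at least 1.5-fold lower, or 1 of 28 members, beside 4.85% of all genes.

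Its neighbours in the pathway did not share this value. Fdps, which joins isoprenoid units into farnesyl diphosphate, had levels of 4.25 and 4.41 on the shCtrl and shLincU arrays, a difference of 0.16. Fdft1, squalene synthase, had levels of 2.73 and 2.53, and its probes gave -0.21 and -0.19. Sqle, squalene epoxidase, had levels of 3.69 and 3.78, a difference of 0.088. Along the chain from Mvd to Sqle the sign alternated, but Fdps and Sqle lay within their scanner error of 0.20. Mvd and Fdft1 were little beyond theirs, at 0.20 and 0.14. Idi1 was the one gene beyond 0.5.

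The enzymes that close the ring and trim lanosterol were near 0 or slightly lower, apart from Ebp. Lss, lanosterol synthase, had levels of 0.29 and 0.0025, a difference of -0.28, but its probes disagreed. Those at chr10:76015992-76016051 and chr10:76016592-76016651 gave -0.040 and 0.014, and the one at chr10:76019513-76019572, which lies furthest downstream and was the dimmest, gave -0.83. The lower value of Lss thus came from 1 of 3 probes, with intensities of 314 and 119. That probe lay in the upper rows, where Lss was at -0.83, and the brightest probe alone put the gene at 0.014. Cyp51, the lanosterol demethylase, had levels of -0.88 and -0.81, with probes at -0.13 and 0.27. Tm7sf2, a sterol reductase, had levels of -0.27 and -0.26.

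Nsdhl and Hsd17b7, which act in turn to remove the methyl groups at the same carbon of the ring, were lower on the shLincU array with every measured probe. Nsdhl had levels of -1.14 and -1.50, and its probes gave -0.24 and -0.49. Hsd17b7 had levels of -0.77 and -0.97, and its 3 probes lay between -0.25 and -0.15. With normexp background correction the dimmer probe of Nsdhl was at -0.0049, and 2 probes of Hsd17b7 were at -0.013 and -0.011. Ebp, the sterol isomerase, was higher, with levels of 2.46 and 2.76 and probes at 0.30 and 0.31. Dhcr7, which makes cholesterol in the last step, had levels of -0.28 and -0.16 from 1 probe that lay beside discordant spots. The 15 enzymes together had a median of 0.032, with 9 above 0 and 6 below.

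**Figure D2:**
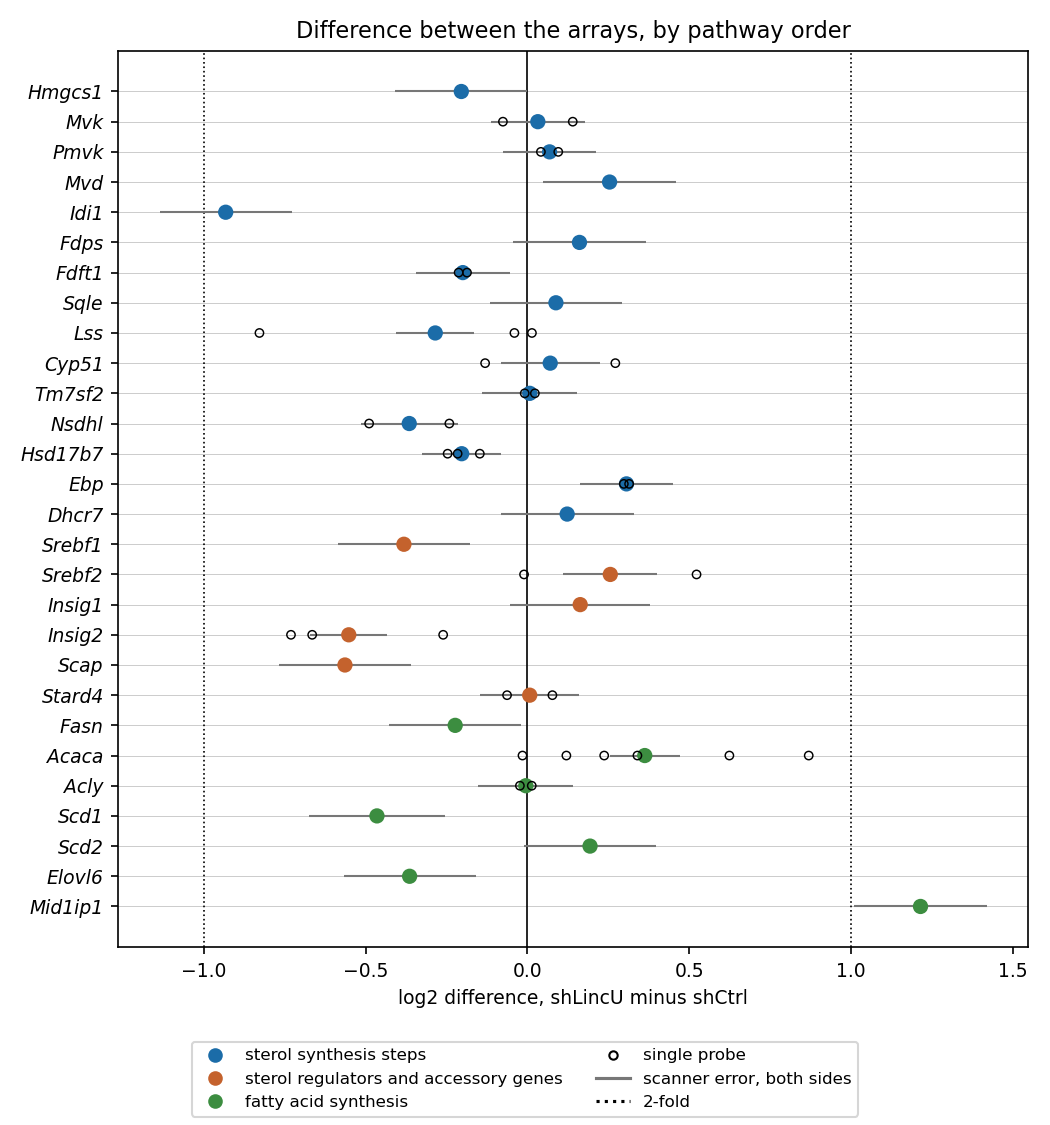
Difference between the arrays (log2, shLincU minus shCtrl) for each gene in pathway order, with filled circles for the gene, small open circles for the single probes of genes with several, grey bars for the scanner error and dotted lines at 2-fold. Mid1ip1 at 1.21 lies beyond the upper dotted line and Idi1 at -0.93 just inside the lower one; the probes of Lss, Srebf2 and Acaca spread by more than 0.5.

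Among the regulators, the genes for the escort and for 1 of the retention proteins were lower on the shLincU array. Scap, whose product carries SREBP to the Golgi, read 6440 intensity units on the shCtrl and 2926 on the shLincU array. Scaled, its levels were 3.36 and 2.80, a difference of -0.56 ± 0.20 (scanner error) from 1 probe. Insig2, which holds SCAP back in the endoplasmic reticulum, had levels of 0.44 and -0.11, a difference of -0.55 ± 0.12 (scanner error, 3 probes; SD between probes 0.25). Scap and Insig2 were lower than most genes: 5.28% and 5.51% of all genes had a lower difference. Both signs held under all settings in which these genes could be read. Choices among probes, filters and rows could not change Scap, which has 1 probe.

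All 3 probes of Insig2 were lower, but they are not independent. The scanner error of 0.12 took them as independent. The probes at chr1:123201071-123201130 and chr1:123201085-123201144 share 46 bases and gave -0.66 and -0.73. The third probe spans 236 bases of the genome with 60 bases of sequence, so it crosses a splice junction, and it gave -0.26. It is shown because it is the only measure of Insig2 that shares no sequence with the others. It lies at chr1:123203517-123203752 in mm9, and its bases are those the array file gives.
Insig2 probe: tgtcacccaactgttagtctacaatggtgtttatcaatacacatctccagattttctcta

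The paralogue of Insig2 and the transcription factor genes lay on both sides of 0. Insig1, itself a classic SREBP target, was dim, with levels of -1.91 and -1.75 and a difference of 0.16. Srebf1 read 6527 and 3364 intensity units, a scaled difference of -0.38 ± 0.20 (scanner error). Srebf2, the main factor of sterol synthesis, had levels of 0.69 and 0.94, but its probes gave 0.52 and -0.011. The brighter probe of Srebf2 was the one near 0, so the gene's difference of 0.26 rests on the dimmer probe, which lay in the lower rows of the slide. Stard4, a sterol carrier protein, had levels of -1.02 and -1.01. The 6 measured genes of this group had a median of -0.19, with 3 above 0 and 3 below. Among the 4 of them whose level reached the median of all genes it was -0.47, and the 3 read in the lower rows had a median of 0.16.

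The highest member was Mid1ip1, whose small protein promotes the assembly of acetyl-CoA carboxylase into active filaments. Its probe at chrX:10296703-10296762 read 1812 intensity units on the shCtrl and 2821 on the shLincU array, although the shLincU array was dimmer as a whole. Scaled, the levels were 1.53 and 2.75, a difference of 1.21 ± 0.20 (scanner error), or 2.32-fold. It ranked 150th from the highest of all genes, with 0.708% of genes higher. The spot lay in the lower rows, though not beside discordant spots, and no second probe was at hand. The difference was 1.14 with normexp background correction, and 0.32 when scaled to the E1A spike-in controls. That scaling shifted the median over all genes by -0.90. It put 0 members at least 2-fold higher, where 0.209% of all genes were, and 12 at least 2-fold lower, where 32.7% of all genes were.

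Acaca, acetyl-CoA carboxylase itself, had levels of -1.91 and -1.55, a difference of 0.36 ± 0.11 (scanner error, 6 probes; SD between probes 0.33). Its probes ran from -0.015 to 0.87, and apart from the most distant one they were higher the further upstream they lay. The probe nearest the end of the gene, at chr11:84215093-84215152, was by far the brightest, with 6336 and 4210 intensity units, and gave -0.015. Next, at 0.734 and 3.46 kb upstream of it, came 0.12 and 0.34. Probes 206 kb upstream gave 0.62 and 0.87, the latter from a spot beside discordant spots with intensities of 35.1 and 43.1, and the most distant, at 270.2 kb, gave 0.24. The gene's mean difference thus came from dim upstream probes, and it was -0.015 with the brightest probe alone.

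The enzymes that act before and after Acaca were at or below 0. Acly, which supplies cytosolic acetyl-CoA, had levels of 2.02 on both arrays. Fasn, the fatty acid synthase, had levels of 6.58 and 6.35, a difference of -0.22. Elovl6, which elongates its product, had levels of 3.94 and 3.57, a difference of -0.36. Fasn and Elovl6, each on 1 bright probe, were thus slightly lower on the shLincU array.

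The desaturases differed in sign. Scd1 had levels of -1.14 and -1.60, a difference of -0.46 ± 0.21 (scanner error), and Scd2 had levels of 3.32 and 3.51, a difference of 0.19 ± 0.20 (scanner error). With normexp background correction Scd1 was at -0.28 and Scd2 at 0.12. The difference of Scd1 comes from 1 probe. A second probe named Scd1 was not well above background on either array, and the array places it on the opposite strand. Near-identical paralogues can share signal, and how far the Scd probes do was not tested. The 7 genes of fatty acid synthesis had a median of -0.0051, with 3 above 0 and 4 below.

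**Figure D3:**
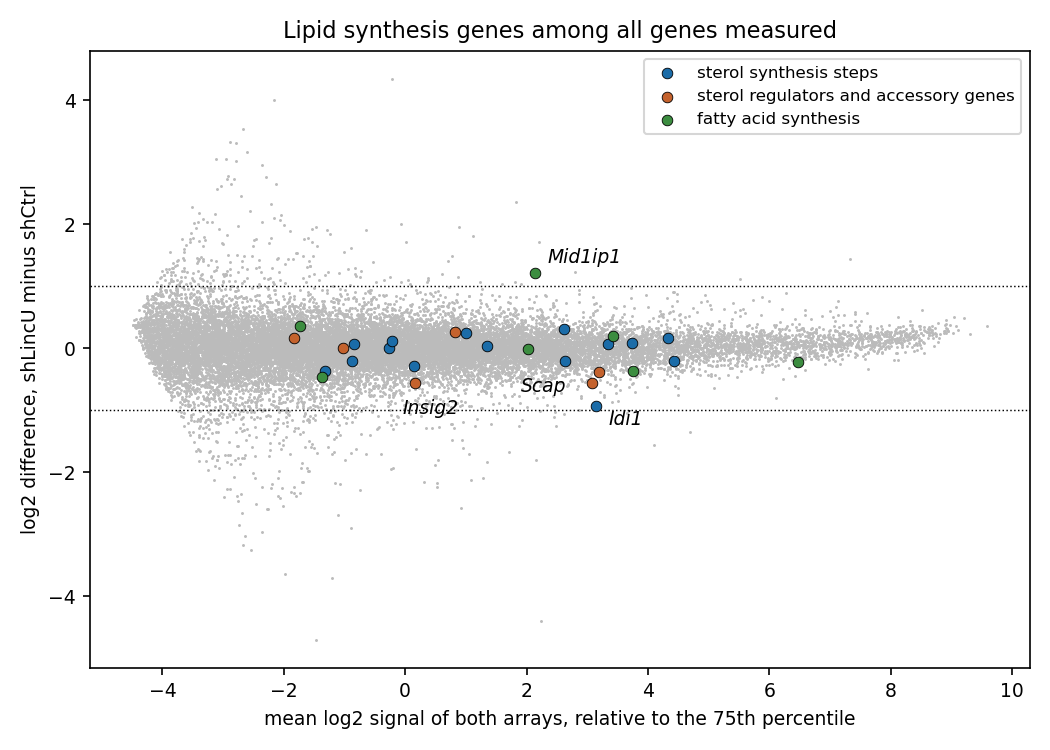
Difference between the arrays (log2, shLincU minus shCtrl) against the mean level of both arrays (log2, relative to the 75th percentile) for all 21042 genes measured on both arrays in grey, with the 28 lipid synthesis genes in colour and dotted lines at 2-fold. Among the coloured points Mid1ip1 at 1.21 and Idi1 at -0.93 lie furthest from 0, followed by Scap at -0.56 and Insig2 at -0.55. Grey points lie beyond all of them, with 0.708% of all genes higher than Mid1ip1 and 1.84% lower than Idi1.

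Across the members with several probes, the dimmest probe was more often above the brightest. This held for 11 of 14 members and for 58.6% of the 7132 genes with several probes on the array, with medians of 0.097 and 0.069 for the dimmest minus the brightest probe. All probes measured on both arrays were split into 5 equal classes of level, which had median differences of 0.096, 0.030, 6.1e-05, -0.023 and 0.031 from the dimmest to the brightest, so the order was not steady. The part of signal level in the probe differences of Acaca, Srebf2 and Cyp51 was not tested. Of the 53 member probes, 4 were not well above background on either array, 1 each of Hmgcs1, Sqle, Acaca and Scd1, and were left out.

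**Figure D4:**
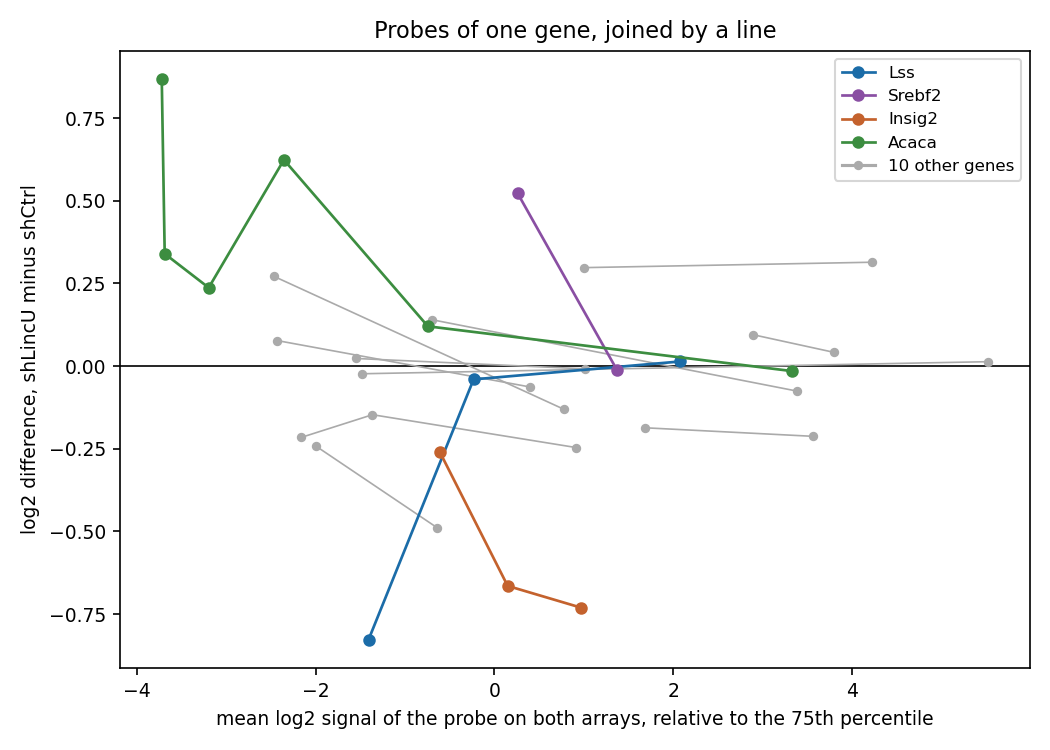
Difference between the arrays (log2, shLincU minus shCtrl) against the mean level of the probe (log2, relative to the 75th percentile), with the probes of a gene joined by a line, for the 14 members with several measured probes. The probes of Acaca run from 0.87 and 0.34 at the dim end to -0.015 at the bright end, and 1 dim probe of Lss lies at -0.83 apart from its other probes.

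The further lists of lipid metabolism held no gene at 2-fold either way, where 1.15% of all genes were higher and 1.54% lower. Lists of this size would hold few such genes at these shares. Of 11 further genes of sterol and isoprenoid metabolism measured, 0 were 2-fold apart and the median was 0.042. These take in genes that use isoprenoids or modify cholesterol besides those of synthesis. The furthest were Fntb, a farnesyltransferase subunit, at 0.63, Cyp46a1, a cholesterol hydroxylase, at 0.39, and Sc5d, a desaturase of the late sterol pathway, at -0.25. Of 16 genes of sterol uptake, transport and SREBP processing, 0 were 2-fold apart and the median was 0.11. Here Soat1, which esterifies cholesterol for storage, was at 0.83 with 4 probes (SD between probes 0.11), Lipa, the lysosomal lipase that frees it, at 0.80, and Soat2 at -0.45. Lipa rests on 1 dim probe, with intensities of 134 and 156, and was at 0.66 with normexp background correction. Soat1, Lipa and Fntb thus differed more than any member other than Mid1ip1 and Idi1, as did the elongase gene Elovl5 at -0.61.

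Genes around the sterol sensor LXR and the wider set of fatty acid enzymes lay near 0. The 9 measured LXR and efflux genes had a median of 0.011, with Mylip at -0.43, Abca1 at -0.33 and Abcg8 at 0.22, and 0 were 2-fold apart. Mylip encodes a ligase that targets the LDL receptor, and Abca1 a sterol exporter. Of the 9 genes 4 were below 0 and 5 above, the latter including Apoe at 0.14, Lpcat3 at 0.068 and Abcg1 at 0.011. Mylip rests on 1 dim probe, with intensities of 236 and 118, and was at -0.19 with normexp background correction. The 26 further fatty acid genes had a median of 0.019, again with 0 at 2-fold. The elongases Elovl5, Elovl7 and Elovl4 were furthest out, at -0.61, 0.42 and -0.39.

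The cells could be checked against their markers. All 10 markers of embryonic stem cells were measured, and all lay within 0.5 of 0, from -0.13 for Esrrb to 0.34 for Sall4. Their signals relative to the 75th percentile summed to 762 on the shCtrl and 867 on the shLincU array, of which Dppa5a alone gave 583 and 684. Without Dppa5a the sums were 179 and 183. Of 16 markers of fibroblast feeders 14 were measured, with a median of -0.90. Of these, 5 were at least 2-fold lower and 0 at least 2-fold higher, where 1.54% and 1.15% of all genes were. The list was split, with 8 markers below 0 and 6 above. The 5 at least 2-fold lower were Dcn at -2.41, Ccl2 at -2.24, Lox at -2.15, S100a4 at -1.88 and Col1a2 at -1.20. Among those above 0 were Col5a1 at 0.73, Col3a1 at 0.64, Col1a1 at 0.45 and Pdgfrb at 0.43. The summed signal of the list was 32.8 on the shCtrl and 39.0 on the shLincU array, of which Tagln, at 0.88, gave 16.3 and 30.1. Without Tagln the sums were 16.5 and 8.95, and Lum and Pdgfra were not well above background on both arrays. The part of feeder RNA in the differences of the lipid genes was not tested. In bulk RNA, fewer cells of a type and less RNA per cell cannot be told apart.

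On the arrays as a whole, 57.9% to 60.9% of probes were well above background and no spot was saturated. The 75th percentile was 626 intensity units on the shCtrl and 420 on the shLincU array. In the lower rows of the slide 4.09% of spots differed at least 2-fold, against 1.34% in the upper rows. Of the member probes 29 lay in the upper and 24 in the lower rows, and 3 lay beside discordant spots, the probe of Dhcr7, 1 of Acaca and 1 of Acly. In the upper rows the 17 members measured had a median of -0.19, and in the lower rows the 19 measured had one of 0.068. The median of all genes was 0.023 in the upper and 0.025 in the lower rows. The upper and lower rows hold different probes and partly different members. The part of slide position in the medians of the members was not tested.

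The direction held across processing for 18 of the 28 members and turned in at least 1 of 13 settings for the other 10. Those 10 were Hmgcs1, Mvk, Sqle, Lss, Cyp51, Tm7sf2, Srebf2, Stard4, Acaca and Acly, the furthest of them from 0 being Acaca at 0.36. All 10 that turned have several probes on the array. All 4 members beyond 0.5, Idi1, Insig2, Scap and Mid1ip1, kept their sign in these settings. Of the 18, Mvd, Idi1, Fdps, Dhcr7, Srebf1, Insig1, Scap, Fasn, Scd2, Elovl6 and Mid1ip1 have 1 probe each on the array. Choices among probes, filters and rows could not change their values. Their kept signs thus rest on the remaining settings only, and the count of 18 partly reflects the number of probes. The share of all genes that kept their sign was not computed. With the median of all genes set equal in each setting, Pmvk at -0.055 and Dhcr7 at -0.0011 also turned without a background filter. Pmvk turned with normexp too. Acaca was then at 0.00015 with the brightest probe, or -0.020 relative to the median of all genes, so it had no clear sign there. Scaling to E1A is not among the 13, since it moved all genes.

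**Figure D5:**
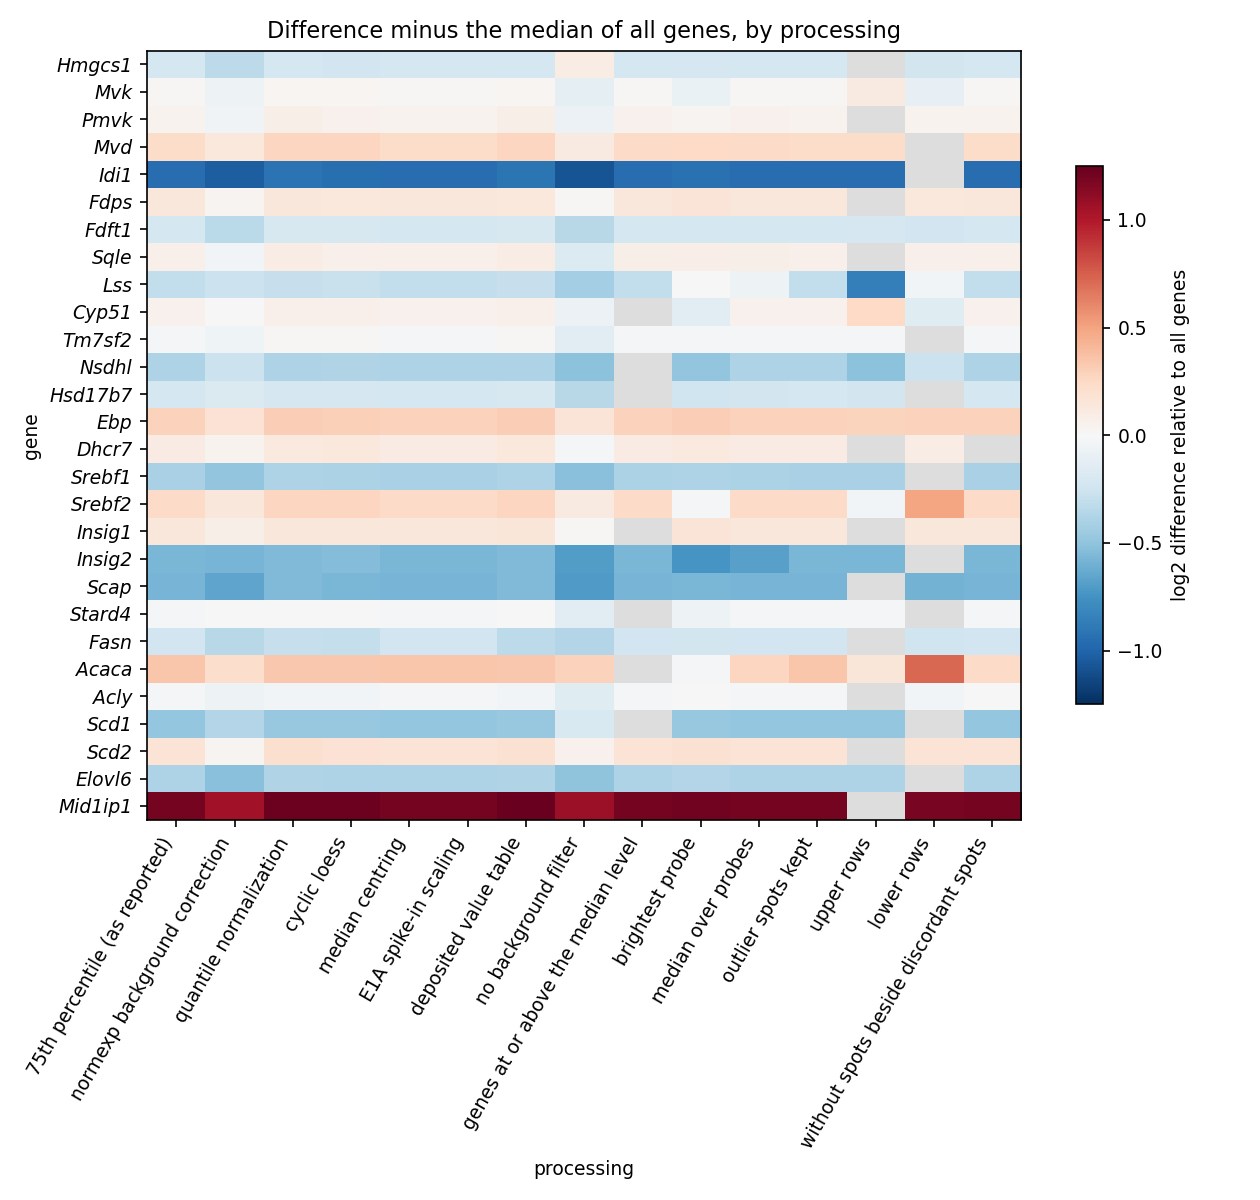
Difference of each member (log2, shLincU minus shCtrl) minus the median of all genes, in colour, for the reported processing in the first column and each alternative in the others, with light grey where a gene was not measured. Mid1ip1 stays red and Idi1, Insig2 and Scap stay blue in every column that holds them, while Lss, Srebf2 and Acaca change with the probes used.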

How the data were processed

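Each group's total RNA carried the dye Cy3 on 1 one-colour array, per the labels. Agilent Feature Extraction 10.7.1.1 is the software named in the submitters' processing notes, and it gave the intensity values per spot that the authors deposited. The processed intensity was background-corrected by detrending, per the file headers. Other columns used from the deposited files are flags for spots well above background, outliers and saturation. The deposited value table holds log2 values with equal medians of 5.65 and a slope of 1.00 on the scanner values. How it was normalized and centred is not stated in the sources at hand and stays unknown.

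Outlier spots were left out (98 and 138), log2 values were centred on the 75th percentile over probes, and spots of a probe were averaged. A gene's difference is the mean over probes well above background on both arrays. Genes are the array's own names. Of the 14 nearest neighbours, 2 or more at 2-fold in one direction put a spot beside discordant spots; upper and lower rows split the 384 rows at the middle. Groups come from the genotype label. With 1 array per group no test was run, and 2-fold was the size counted.

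All members were named, and the 3 furthest genes of each other list. Members and lists were chosen with earlier results of these data known. Promoters are from RefSeq (GRCm38.p6) and matched 23 members by symbol. The calculation was tested on simulated data. Alternatives were normexp (offset 50), quantile and cyclic loess normalization, other centring, the deposited table, other filters, probe rules and rows, and 1.5-fold or 3-fold. Python 3.11.15, pandas 2.3.3, R 4.3.3 and limma 3.58.1 were used.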

Additional observations from a re-analysis of the deposited data

How the results depend on the processing

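No paired analysis was possible because there is only 1 array a group, and leaving out an array would leave no comparison. Scaling to 8 E1A spike-in controls put the medians of all members, sterol enzymes, regulators and fatty acid genes at -0.89, -0.86, -1.08 and -0.90, with 0 members at least 2-fold higher and 12 lower, while the median of all genes was -0.88 and 32.7% of them were at least 2-fold lower. In the upper rows the median of all members was -0.19 and that of fatty acid genes -0.36, with 0 members at least 2-fold higher, since the probe of Mid1ip1 lies in the lower rows. In the lower rows the regulators were at 0.16 and fatty acid genes at 0.19, and the regulators whose level reached the median of all genes were at -0.47; these parts hold 3 to 5 genes each, and the cause was not tested. At 1.5-fold 1 member was lower, as were 4.85% of all genes, and at 3-fold 0 were higher, where 0.347% of all genes were. The medians of the members under the other settings moved by less than 0.18, the typical SD over the probes of 1 gene. The values of Acaca, Lss and Scd1 rest largely on dim probes.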

Other observations

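The probes left out as too dim carry values of their own. A second Hmgcs1 probe, named for a cDNA clone, read 9.86 intensity units on the shCtrl and 10.5 on the shLincU array, where the measured probe read 14422 and 8406. A second Sqle probe read 8.10 and 4.93, beside 8093 and 5776 for the measured one. Without a background filter the signs of Hmgcs1 and Sqle turned through these probes.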
